A study of Mus musculus with 4 samples.

Results

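The 9 genes described here are known from macrophages that live in tissues, although some are also transcribed in other cells: the complement C1q chain genes C1qa, C1qb and C1qc, the lipid carrier gene Apoe, the receptor genes Mrc1, Marco and Axl, the transcription factor gene Maf and the adhesion gene Vcam1. They were chosen by name, and all 9 were found among the 23235 genes of each deposited table. RNA was sequenced from acute myeloid leukaemia that carried NRASG12V and the Mll-AF9 fusion, grown in SCID/Beige mice for 20 days after injection into the tail vein. The groups are leukaemia with NRASG12V off for 48 h, 72 h and 96 h, and leukaemia with NRASG12V on, each with 1 library; doxycycline, by injection and in drinking water, switched NRASG12V off. All 4 groups share the Mll-AF9 fusion and the host strain. The labels give 1 treatment text for all 4 libraries and do not say whether the on library received the drug, so effects of doxycycline and of elapsed time cannot be told apart from the loss of NRASG12V. The harvested tissue, the promoter that drives NRASG12V and whether each library is a separate mouse are not stated in the labels. SCID/Beige mice lack working T and B cells and have impaired natural killer cells but keep their macrophages, so a macrophage transcript can come from the host or from the leukaemia.

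Tissue macrophages clear dying cells, spent red cells and debris, and many of the 9 products serve that work. C1q, built from the A, B and C chains, binds dying cells and immune complexes and starts the classical complement cascade; macrophages are its chief source. Apoe carries cholesterol out of loaded macrophages. Mrc1 (the mannose receptor) and Marco (a class A scavenger receptor) take up glycoproteins and particles, Axl is a receptor kinase that binds dying cells through the bridging protein Gas6, and Maf is a transcription factor of the large Maf family that is active in macrophages. Vcam1 holds cells that carry the integrin Itga4 with Itgb1 and is made by macrophages of the spleen and bone marrow and by endothelial and stromal cells.

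C1qb, C1qc and C1qa lie side by side in that order on chromosome 4 in RefSeq's annotation of GRCm38.p6. RefSeq start-site sequences (250 bases before to 50 after the start) matched 6 of the 9 genes; C1qa, Maf and Vcam1 had no entry. The sequences of the neighbouring chains C1qb and C1qc are shown because their levels lay close together in every off library, and that of Marco because it was the member with lower FPKM than on at each time. Capitals mark GAGGAA, the core bound by the macrophage factor PU.1 and related ETS proteins, and TGCTGA, the core of Maf recognition elements, on either strand. The builds differ: the files were made with mm9, per the submitters' processing notes, and these positions are GRCm38.p6 on the minus strand.
C1qb, chr4:136886151-136886450: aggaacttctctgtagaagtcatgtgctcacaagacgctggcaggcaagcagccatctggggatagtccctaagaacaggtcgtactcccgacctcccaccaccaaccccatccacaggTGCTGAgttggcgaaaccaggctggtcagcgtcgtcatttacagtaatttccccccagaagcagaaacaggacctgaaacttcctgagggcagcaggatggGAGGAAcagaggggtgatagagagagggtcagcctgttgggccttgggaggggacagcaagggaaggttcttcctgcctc
C1qc, chr4:136892865-136893164: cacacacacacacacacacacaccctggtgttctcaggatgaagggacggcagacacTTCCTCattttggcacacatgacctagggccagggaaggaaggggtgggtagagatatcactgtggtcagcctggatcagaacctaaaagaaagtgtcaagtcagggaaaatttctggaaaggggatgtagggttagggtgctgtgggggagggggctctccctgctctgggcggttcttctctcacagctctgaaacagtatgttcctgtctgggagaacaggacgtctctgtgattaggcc
Marco, chr1:120504975-120505274: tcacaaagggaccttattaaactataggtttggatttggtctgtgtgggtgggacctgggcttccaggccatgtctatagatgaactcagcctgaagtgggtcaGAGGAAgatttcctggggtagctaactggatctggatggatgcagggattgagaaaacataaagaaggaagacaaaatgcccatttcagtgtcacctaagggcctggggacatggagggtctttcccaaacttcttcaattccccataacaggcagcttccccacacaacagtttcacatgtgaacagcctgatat
Each of the 3 windows held 1 GAGGAA, a motif found in 28.3% of 32851 start-site windows. C1qb also held 1 TGCTGA, found in 19.5% of them; these letters were not in the C1qc or Marco window. The matches do not overlap each other and describe letters only.

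FPKM are fragments per kilobase of transcript with a scaling for the library, so levels of different genes within a library can be compared per length. The same on library was scaled differently beside each off library, so the scaling is not by its mapped total alone. All levels below are on the scale of the 48 h table, to which the other tables were brought through their shared on column. The low values step with whole reads. Before the off libraries were brought to the 48 h scale, 1 read per kilobase was worth 0.0446 to 0.0507 FPKM in them. It was worth 0.0557 FPKM in the on library on the 48 h scale. These values hold the scaling of each comparison too, so they give depth only roughly. In the off libraries 11379 to 11490 genes reached 1 FPKM, and 11242 did in the on library. Nras, the mouse gene of the switched oncogene, measured 17.1 to 19.4 FPKM in the off libraries, against 24.5 FPKM on, a mean log2 change of -0.41 ± 0.09 (SD, n = 3) that did not pass limma (Benjamini-Hochberg adjusted p = 0.128). The labels do not say whether transgene reads count for this gene, so it is a weak check of them. Defining macrophage markers were present, although myeloid leukaemia cells can carry them too: over the 4 libraries Csf1r measured 43.0 to 64.5 FPKM, Emr1 (F4/80) 16.3 to 19.1 FPKM and Cd68 44.4 to 115 FPKM. Of 8 hepatocyte genes, Alb, Apob and Fgb were listed at 0 in every library and Cyp2e1 was the highest, at 1.07 to 1.87 FPKM. Stromal genes were abundant, with Sparc at 151 to 248 FPKM and Col1a1 at 55.9 to 116 FPKM.

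**Figure D1:**
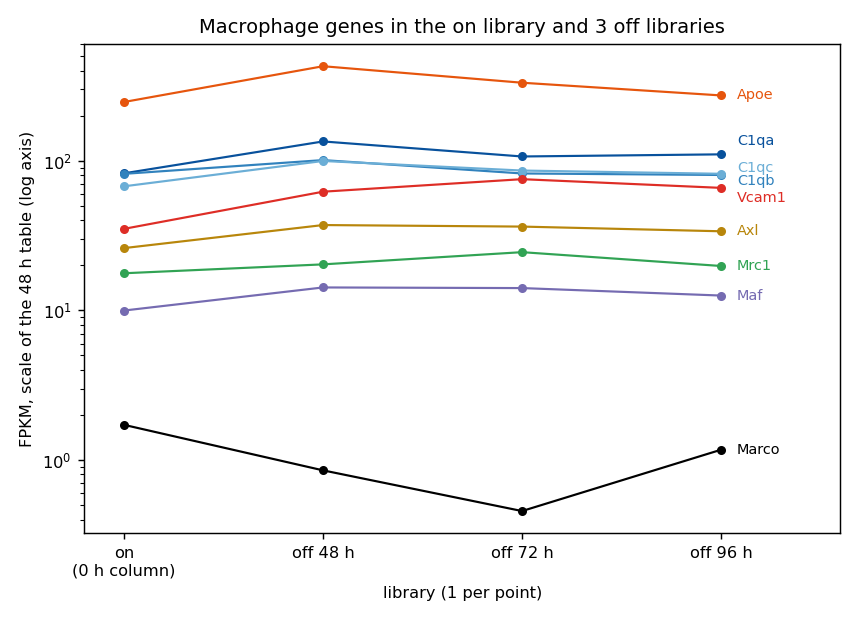
FPKM of the 9 genes on a log axis in the on library and the libraries at 48 h, 72 h and 96 h off, 1 point per library, joined per gene. Apoe is highest in every library and Marco lowest, and most lines run slightly above their on level, with Marco below it.

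Of the 9 genes, 8 had a mean level above their on level while NRASG12V was off and Marco had a lower one, but Vcam1 alone passed the test over the off libraries. At 48 h, 72 h and 96 h, 8, 8 and 7 members lay above on, beside 39.7%, 45.3% and 45.9% of all genes tested. In bulk RNA, fewer cells of a type and less RNA per cell cannot be told apart. At each time a gene was counted as called where it differed at least 2-fold, as log2((off FPKM + 1)/(on FPKM + 1)), and reached 1 FPKM in either library. On this scale the changes of weakly expressed genes come out too small. At 48 h, 0 of the 9 were called, against backgrounds of 5% of 11739 genes higher and 4.85% lower. At 72 h Vcam1 was called higher and no member lower, against 6.61% higher and 5.76% lower of 11746 genes, and at 96 h again 0 were called, against 7.39% and 8.16% of 11729. The 9 genes had a median log2 change of 0.50, 0.43 and 0.27 at 48 h, 72 h and 96 h, beside -0.14, -0.07 and -0.06 for all genes tested. The 3 comparisons share the on library, so an error in that library enters each of them. Where every off library lay to 1 side of on, the order rests on that 1 library. The share of all genes with such an order was not counted.

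Over the 3 off libraries, limma on log2(FPKM + 1) called 1 of the 9 genes (Benjamini-Hochberg adjusted over 12015 genes), against 11.8% of all genes higher and 15.1% lower. Without adjustment, 3 of the 9 members had p under 0.05, as did 4973 of the 12015 genes, so the members do not stand out by this count. The fit sets 3 libraries against 1, so differences between times enter the error, and the single on library is given the variance of the off libraries. Since the libraries are not said to be separate animals, the p-values speak only of the spread among the 3 off libraries, which may be technical. The variation of the on library was not measured. The members' median of the mean log2 changes was 0.41, and that of all genes -0.08.

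**Figure D2:**
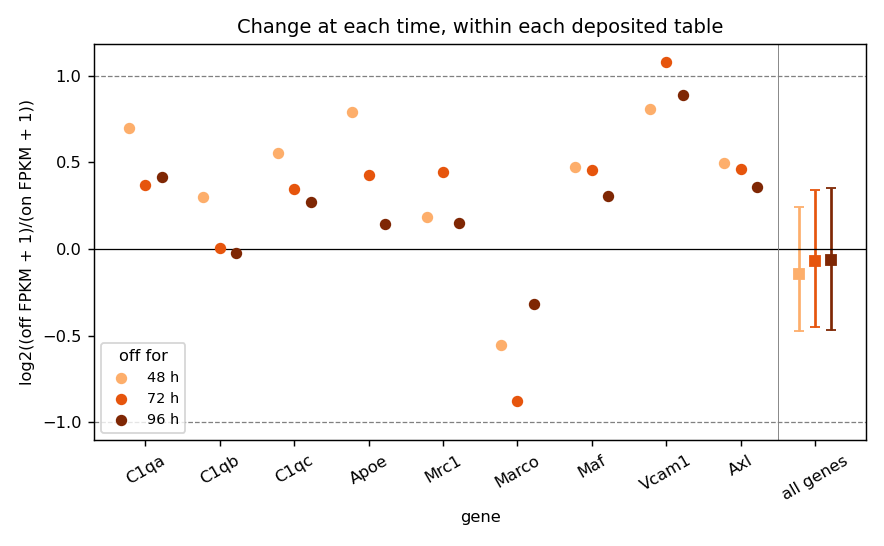
Log2 change of each of the 9 genes at 48 h, 72 h and 96 h (points), with the median and the interquartile range of all genes tested at the right; dashed lines mark 2-fold. Vcam1 at 72 h lies past 2-fold, and Marco lies below 0 at each time.

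C1qa, which encodes the A chain, measured 82.4 FPKM with NRASG12V on, 135 FPKM after 48 h off, 107 FPKM after 72 h and 110 FPKM after 96 h. C1qc, the C chain gene, measured 67.5 FPKM with NRASG12V on, 99.6 FPKM after 48 h off, 86.0 FPKM after 72 h and 81.8 FPKM after 96 h. C1qb, the B chain gene, measured 81.7 FPKM with NRASG12V on, 101 FPKM after 48 h off, 82.2 FPKM after 72 h and 80.3 FPKM after 96 h. All 3 were highest at 48 h; every off library lay above the on library for C1qa and C1qc, whereas the C1qb counting intervals at 72 h and 96 h included the on level. The log2 changes at 48 h, 72 h and 96 h were 0.70, 0.37 and 0.42 for C1qa, 0.56, 0.35 and 0.27 for C1qc, and 0.30, 0.01 and -0.02 for C1qb. Their means were 0.50 ± 0.18, 0.39 ± 0.15 and 0.10 ± 0.18 (SD, n = 3 off libraries), and none passed limma (Benjamini-Hochberg adjusted p = 0.122, 0.185 and 0.766). The limma 95% intervals of these means ran from -0.003 to 0.99 for C1qa, from -0.08 to 0.87 for C1qc and from -0.40 to 0.59 for C1qb.

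The summed FPKM of the 3 chains was 335, 275 and 272 at 48 h, 72 h and 96 h off, against 232 on, that is 1.45, 1.19 and 1.18 times the on sum. Assembled C1q holds equal numbers of the A, B and C chains. The ratio of C1qa to C1qb FPKM was 1.33, 1.30 and 1.37 in the off libraries at those times, against 1.01 in the on library. The ratio of C1qb to C1qc was 1.01, 0.956 and 0.982 off, against 1.21 on. C1qb was the chain gene whose place differed: level with C1qa in the on library, and level with C1qc in the off libraries. This contrast rests on the single on library and was not tested.

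Apoe was the most abundant of the 9. It measured 247 FPKM with NRASG12V on, 428 FPKM after 48 h off, 332 FPKM after 72 h and 273 FPKM after 96 h. Its log2 changes were 0.79, 0.43 and 0.15, the widest spread over the times among the genes above the on level. The mean of 0.45 ± 0.32 (SD, n = 3) did not pass limma (Benjamini-Hochberg adjusted p = 0.242); without the 48 h library it was 0.29. The change at 48 h was above that of 92.3% of all genes tested, and that at 96 h above that of 63.4%.

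Mrc1 measured 17.7 FPKM with NRASG12V on, 20.3 FPKM after 48 h off, 24.5 FPKM after 72 h and 19.8 FPKM after 96 h, a mean log2 change of 0.26 ± 0.16 (limma, Benjamini-Hochberg adjusted p = 0.348), or 0.17 without the 72 h library. Axl measured 26.1 FPKM with NRASG12V on, 37.2 FPKM after 48 h off, 36.3 FPKM after 72 h and 33.8 FPKM after 96 h, with a mean log2 change of 0.44 ± 0.07 (adjusted p = 0.110). Maf measured 9.97 FPKM with NRASG12V on, 14.2 FPKM after 48 h off, 14.1 FPKM after 72 h and 12.6 FPKM after 96 h, with a mean log2 change of 0.41 ± 0.09 (adjusted p = 0.126; SD, n = 3 for each). Every off library lay above the on library for these 3 genes, with folds of the mean off level over on of 1.22, 1.37 and 1.37 for Mrc1, Axl and Maf. Mrc1 peaked at 72 h, while Axl and Maf were close at 48 h and 72 h and lower at 96 h.

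Marco measured 1.72 FPKM with NRASG12V on, 0.852 FPKM after 48 h off, 0.456 FPKM after 72 h and 1.17 FPKM after 96 h, so that every off library lay below the on library. Its log2 changes were -0.55, -0.88 and -0.32, and the mean of -0.59 ± 0.29 (SD, n = 3) did not pass limma (Benjamini-Hochberg adjusted p = 0.091; 0.0364 without the 96 h library). About 32, 15 and 45 reads underlie the off values and about 56 the on value, so this gene rests on far fewer reads than the others, each of which had at least 1120. Without the pseudocount, the off to on ratio at 72 h was 0.265 (95% counting interval 0.139 to 0.476) and at 96 h 0.682 (0.450 to 1.03).

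**Figure D3:**
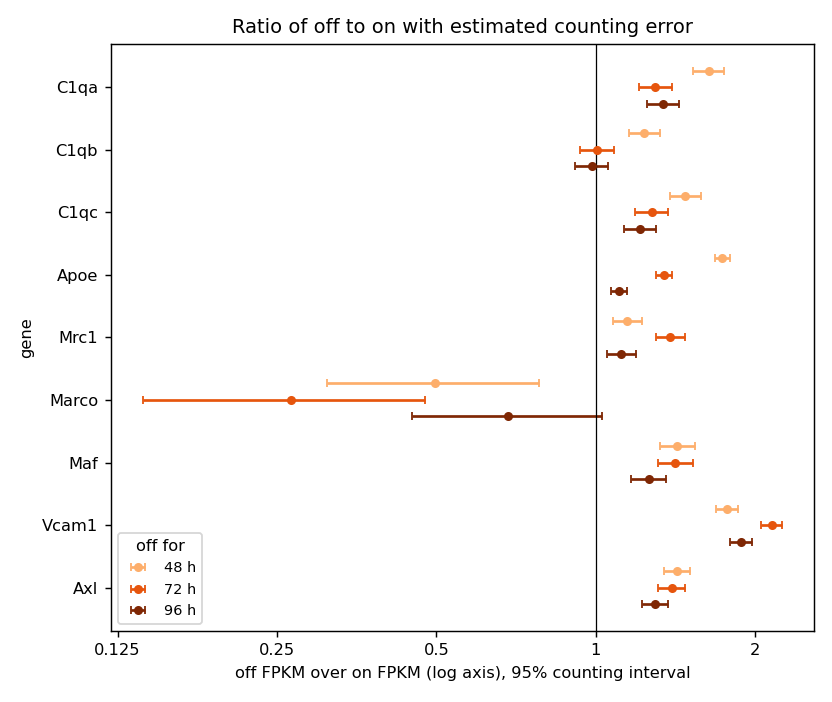
Off FPKM over on FPKM for each gene at 48 h, 72 h and 96 h on a log axis, with 95% exact binomial intervals from the estimated reads, which cover counting error only. The C1qb intervals at 72 h and 96 h and the Marco interval at 96 h include 1; Marco's are the widest.

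Vcam1 had the largest mean change of the 9 on the log2(FPKM + 1) scale; with a pseudocount of 0.1 FPKM the mean change of Marco was larger in size (-1.05, against 0.94 for Vcam1). It measured 35.1 FPKM with NRASG12V on, 62.1 FPKM after 48 h off, 75.3 FPKM after 72 h and 65.9 FPKM after 96 h. All 3 off libraries lay above the single on library. The log2 changes were 0.81, 1.08 and 0.89, and Vcam1 rose by a mean of 0.93 ± 0.14 (SD, n = 3; limma, Benjamini-Hochberg adjusted p = 0.0135). Without the 72 h library the call was lost (adjusted p = 0.0718), with a mean of 0.85. Estimated reads were 5132 to 5606 off and 2505 on, and the counting interval of the 72 h ratio of 2.15 ran from 2.05 to 2.25. The change was above that of 92.5%, 94.3% and 90.9% of all genes tested at 48 h, 72 h and 96 h. GENCODE places Gm43109 over Vcam1 and Gm15655 over Maf, each on the other strand; whether counting used strand is not stated, so reads of these pairs cannot be told apart.

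Counting error can be set beside the differences between times. For C1qa the interval of the ratio at 48 h (1.63; 1.53 to 1.74) lay above that at 72 h (1.30; 1.21 to 1.39). For Apoe the intervals at 48 h (1.73; 1.68 to 1.79), 72 h (1.35; 1.30 to 1.39) and 96 h (1.11; 1.07 to 1.15) did not touch. The intervals assume that the longest GENCODE transcript gives the length, and they cover counting error only, since these are PCR reads without molecular identifiers.

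In each off library Apoe was the highest of the 9 genes, C1qa came next, and below the C1q genes came Vcam1, Axl, Mrc1, Maf and Marco in that order. Over the off libraries, C1qc and C1qb overlapped (81.8 to 99.6 and 80.3 to 101 FPKM); for each other pair of neighbours in the order of the off means, the lowest value of the higher gene exceeded the highest of the lower gene. The gap was narrow between C1qb at its lowest, 80.3 FPKM, and Vcam1 at its highest, 75.3 FPKM. C1qb stood ahead of C1qc in the 48 h off library and in the on library, and behind it at 72 h and 96 h; the other places were the same in all 4 libraries.

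**Figure D4:**
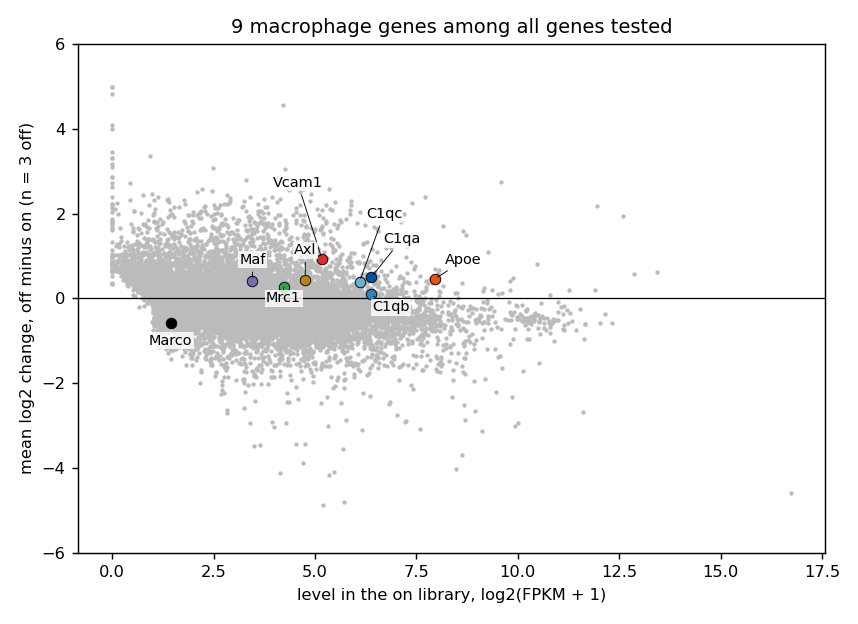
Mean log2 change over the 3 off libraries against the log2(FPKM + 1) level in the on library for 12015 genes (grey), with the 9 genes in colour; 8 genes lie outside the vertical axis. The 8 genes other than Marco lie above 0 and Vcam1 is the highest of them.

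The genes whose changes over the 3 times were nearest to those of Vcam1, by Euclidean distance among 2030 genes of like mean level, were Zcchc6 (distance 0.05; 23.5 FPKM on and 42.8, 50.7 and 45.6 FPKM off at 48 h, 72 h and 96 h) and Sfrs18 (0.09). Nearest to the mean of the 3 C1q genes, among 1275 genes, were Fam96b (0.12), the syndecan Sdc3 (0.13), the lysosomal enzyme gene Ppt1 (0.13), C030046I01Rik (0.14) and the transferrin gene Trf (0.16). These distances rest on 4 libraries, and 12 and 6 genes lay within 0.2 of Vcam1 and of C1q.

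Of the 21 other genes of the classical complement pathway and its regulators, 8 rose, 3 fell and 10 did not pass limma (Benjamini-Hochberg), and their median mean change was 0.05, beside -0.08 for all genes. The shares to set beside this and each later list are 11.8% of all genes called higher and 15.1% lower. C4b, the complement component cleaved by the C1 complex, measured 3.24 FPKM with NRASG12V on, 15.3 FPKM after 48 h off, 14.8 FPKM after 72 h and 17.1 FPKM after 96 h, a rise of 1.98 ± 0.10. The protease gene C1s, which acts within C1, rose by 0.97 ± 0.15 and its next substrate gene C2 by 1.16 ± 0.08. Of the same list, C1ra (0.41 ± 0.04) and the abundant C3 (0.04 ± 0.38) did not pass. Serping1, the inhibitor of C1, rose by 0.61 ± 0.10 (adjusted p = 0.0441; 0.226 without the 72 h library). Cd59a, a membrane inhibitor of complement that red cells carry, rose by 2.53 ± 0.36; all 20 erythroid genes listed rose in the same libraries, with a median of 2.24 and a summed FPKM of 25374 to 40852 off against 8035 on, and their part in these values was not tested. Cfp (properdin), made by myeloid cells, fell by 1.35 ± 0.21, while Calr, a C1q-binding chaperone, had a mean change of -0.57 ± 0.07 that did not pass (adjusted p = 0.0722).

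Among 23 other genes of apoptotic cell uptake, the test called 3 higher and 5 lower and left 15 uncalled (median -0.11). Over all genes it called 11.8% higher and 15.1% lower (median -0.08). Gas6, the ligand of Axl, rose by 1.22 ± 0.09 (limma, Benjamini-Hochberg adjusted p = 0.00325), with 18.3 to 20.8 FPKM off against 7.92 FPKM on. The related receptor Mertk measured 7.81 to 9.48 FPKM off against 6.24 FPKM on (adjusted p = 0.158). The uptake receptor Timd4 rose by 1.65 ± 0.08, with 3.26 to 3.73 FPKM off against 0.430 FPKM on, and the inhibitory receptor Cd300a fell by 1.25 ± 0.26. Mfge8 was called lower, with 24.6 to 31.7 FPKM off against 49.9 FPKM on (-0.86 ± 0.19), a call lost without the 72 h library. The abundant Anxa1 (-0.11 ± 0.45) and Ucp2 (-0.19 ± 0.13) did not pass. Of 22 other genes of apolipoproteins and cholesterol handling, 2 were called higher, 6 lower and 14 neither way (median -0.59). The lipid sensing receptor Trem2, which binds Apoe, fell by 3.01 ± 0.56 and the lipase Lpl by 2.10 ± 0.29, while Apoe itself and Tyrobp (-0.72 ± 0.37), the signalling partner of Trem2, did not pass.

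Of 15 other scavenger receptors and lectins, 1 rose, 4 fell and 10 did not pass, beside 11.8% of all genes called higher and 15.1% lower. Their median mean change was 0.22, above the -0.08 of all genes. The class A scavenger receptor Msr1, a relative of Marco, fell by 2.45 ± 0.44 (limma, Benjamini-Hochberg adjusted p = 0.00193), Lgals3 by 1.51 ± 0.40 and Cd68 by 1.04 ± 0.31, and the lectin Cd209a rose by 1.51 ± 0.55. Of 19 other macrophage transcription factors, 8 fell, 1 rose and 10 did not pass: Klf4 fell by 2.48 ± 0.32, Cebpb by 1.85 ± 0.40, Sfpi1 (PU.1) by 1.10 ± 0.37 and Irf8 by 0.85 ± 0.25 (adjusted p = 0.0342; 0.113 without the 72 h library). Spic, the factor of red pulp macrophages, rose by 0.77 ± 0.19 (adjusted p = 0.0279; 0.0656 without the 72 h library). Of 14 other genes tied to type 2 or steroid responsive macrophages, a list that holds Mrc1, 7 fell and 0 rose, led by Arg1 at -2.63 ± 0.17 and the steroid-induced Fkbp5 at -2.31 ± 0.23. The steroid-induced Tsc22d3 did not pass (-0.96 ± 0.54).

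Of 34 macrophage core genes tested, Gas6 rose, 6 fell and 27 did not pass, beside 11.8% of all genes called higher and 15.1% lower. The list median was -0.03, beside -0.08 for all genes, and the summed FPKM was 3021 to 4324 off against 3796 on. F13a1 fell by 2.75 ± 0.54 (limma, Benjamini-Hochberg adjusted p = 0.00227; 0.0607 without the 48 h library) and Cd14 by 1.53 ± 0.33, whereas Lyz2 (0.07 ± 0.42), Ctsd (0.37 ± 0.06) and Emr1 (-0.05 ± 0.11) did not pass. In the red pulp and erythroblastic island list, 16 other genes were tested, of which 7 rose and 1 fell (median 0.45). The iron exporter Slc40a1 rose by 1.41 ± 0.19 and Treml4 by 0.90 ± 0.15; Cd5l rose by 0.67 ± 0.15 (adjusted p = 0.0363; 0.0984 without the 72 h library) and Hmox1, the haem-degrading enzyme, fell by 1.55 ± 0.19. Cd163 (0.22 ± 0.27) and Siglec1 (0.56 ± 0.36) did not pass. Blvrb (2.11 ± 0.30), Epor (43.9 to 73.7 FPKM off against 13.3 FPKM on) and Fth1 (0.81 ± 0.15) rose too, and erythroid cells also transcribe all 3. The part of erythroid cells in these and the other rises of this list, Slc40a1 among them, was not tested. The ferritin gene Ftl1 did not pass (-0.11 ± 0.07).

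**Figure D5:**
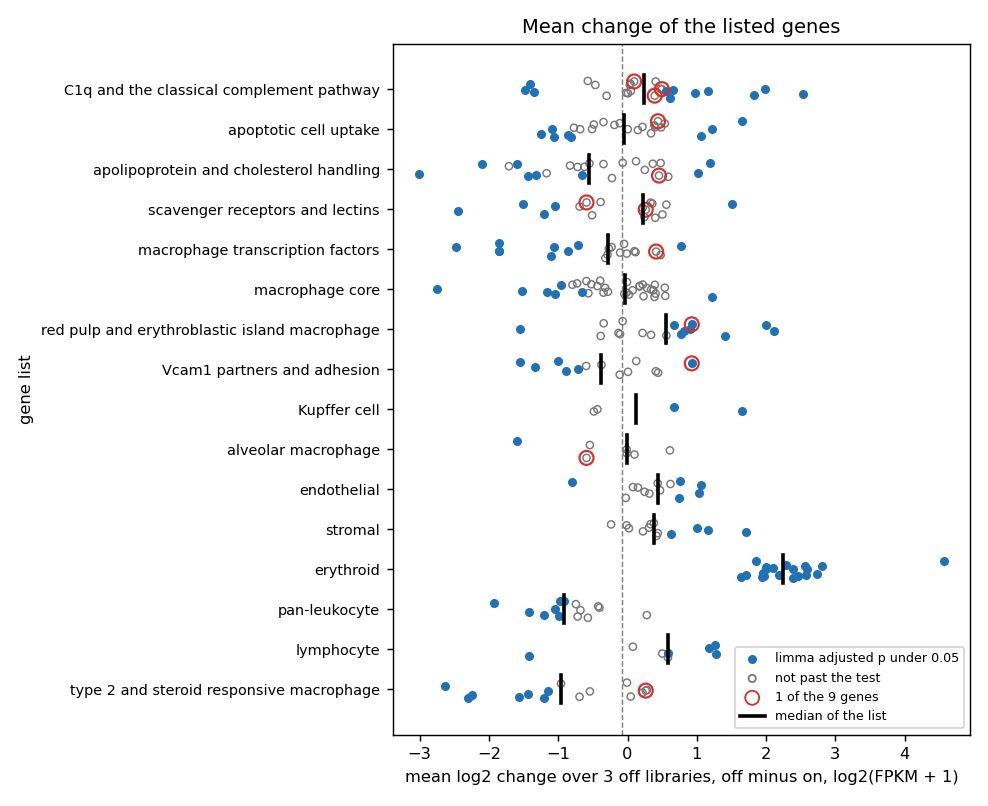
Mean log2 change over the 3 off libraries of each gene tested, by list; filled blue points passed limma, open grey ones did not, red rings mark the 9 genes, black bars list medians and the dashed line the median of all genes. The erythroid points lie at the right, with a median of 2.24, and the pan-leukocyte median lies at -0.91.

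Marker lists of other cells also moved in these libraries. Of 15 pan-leukocyte genes 7 fell, 0 rose and 8 did not pass (median -0.91). Their summed FPKM was 2248 to 3665 off against 5235 on. Among those that fell were Srgn (-1.92 ± 0.20) and Cytip (-1.42 ± 0.31). The leukocyte marker Ptprc did not pass (0.28 ± 0.34, limma adjusted p = 0.469), with 64.5 to 101 FPKM off against 69.9 FPKM on. Vcam1 is also made outside macrophages: of 13 endothelial genes 4 rose and 1 fell (median 0.44; summed FPKM 155 to 161 off against 126 on), and of 13 stromal genes 4 rose and 0 fell (median 0.38; 533 to 807 off against 564 on). The stromal median was 0.48, 0.62 and 0.09 at 48 h, 72 h and 96 h. Col1a1, Col1a2 and Col3a1 lay above on at 48 h and 72 h and below it at 96 h (-0.67, -0.29 and -0.34). None of these collagen genes passed limma. The niche chemokine Cxcl12 rose by 1.71 ± 0.15, Kitl by 1.16 ± 0.19, and the endothelial receptors Stab2 by 1.05 ± 0.18 and Kdr by 1.04 ± 0.14. Of the markers that define endothelium, Pecam1, which leukocytes carry too, fell by 0.81 (adjusted p = 0.0166; 0.0521 without the 72 h library), and Cdh5 did not pass (-0.03). Plvap (0.47 ± 0.08), Eng (0.62 ± 0.29), Bgn (0.38 ± 0.26) and Sparc (-0.01 ± 0.36) did not pass. The part of these cells in the Vcam1 rise was not tested. Of the partners and relatives of Vcam1, Itgb7 fell by 1.33 ± 0.45 and Selp by 1.55 ± 0.11, and Msn fell too, to 77.8 to 112 FPKM off against 196 FPKM on. In all, 5 of 12 such genes fell and 0 rose; Itga4 (0.41 ± 0.22), Itgb1 (0.13 ± 0.05) and Tln1 (0.01 ± 0.06) did not pass.

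Marker lists of other resident macrophages held both abundant and undetected genes. Of 4 liver macrophage genes tested, Timd4 and Cd5l rose and the others did not pass; Cd5l measured 17.6 to 21.4 FPKM off against 11.5 FPKM on, whereas Clec4f and Vsig4 stayed at or under 0.243 FPKM. Of 6 alveolar macrophage genes other than Marco, Fabp4 fell by 1.60 ± 0.19 and 5 did not pass, among them Chi3l3 (-0.54 ± 0.43) and Ear2 (0.61 ± 0.51). Chi3l3 was abundant, at 569 to 974 FPKM off against 1173 FPKM on. The single hepatocyte gene tested, Cyp2e1, did not pass (-0.16 ± 0.24). Of 8 lymphocyte genes tested, 4 rose and 1 fell: Cd3d rose by 1.28 ± 0.42 and Gzma by 1.18 ± 0.46 (adjusted p = 0.0275; 0.0513 without the 48 h library), Cd79b fell by 1.43 ± 0.07, and Cd3e stayed at or under 0.146 FPKM.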

How the data were processed

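The submitters' processing notes name TopHat2 2.0.4, Cuffdiff and the build mm9; they state no annotation, Cuffdiff version, read length or strand option. The authors deposited FPKM values in 4 tables, of which 3 set the on library beside 1 off library and 1 beside a combined off value. The 0 hours column was read as the on library because no other sample is labelled on. The tables were scaled separately: after 1 factor to the 48 h scale (1.05 for 72 h, 1.06 for 96 h, 0.881 for the combined table), 99.9% or more of on values matched within 0.1% at 72 h and 96 h, and 99.5% did in the combined table. Reads were estimated from the worth of 1 read in genes with 1 GENCODE M21 transcript of 600 to 5000 bases; of values of up to about 10 reads, 72.1% to 74.5% lay within 0.1 read of a whole number. No count test was run.

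Changes were log2((off FPKM + 1)/(on FPKM + 1)) within each table, without a test, since each group holds 1 library. Off libraries were also set against on in R 4.3.3 by limma 3.58.1 (with statmod 1.5.0), fitted to log2(FPKM + 1) with robust eBayes and a trend; the fit leaves 2 residual degrees of freedom, with Benjamini-Hochberg adjustment over the 12015 genes reaching 1 FPKM in a library, threshold 0.05. On simulated data for this comparison with 12015 genes, it recovered 58.5% of 200 genes changed 4-fold, with 2 false calls among 119. The changed genes were drawn from those above a minimum mean level, and the simulated on library had the spread of the off libraries. The simulation therefore cannot show how the fit fares where the on library varies otherwise. All adjusted p-values in the text are from limma, and errors are SD over the 3 off libraries.

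The members and 17 gene lists (299 of 300 entries matched; 270 genes) were chosen with earlier results of these data known. The rule for named genes took, per list, the 2 genes of highest mean FPKM and the 2 of largest absolute mean change among those reaching 1 FPKM, plus genes nearest in pattern; marker genes of the cell type lists are also named. C1s, C2, C1ra, C3, Serping1, Gas6, Mfge8, Itga4 and Itgb1 are from the lists but were chosen after their values were seen. Alternatives varied the pseudocount, centring, filter, eBayes settings and the libraries used. Sequences are from RefSeq.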

Additional observations from a re-analysis of the deposited data

Results flagged for a closer look

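C1qb stood above its on level at 48 h and 72 h and below it at 96 h, so its direction differed between times: the log2 changes were 0.30, 0.0083 and -0.025. The difference between times was not tested, and the counting intervals of the off to on ratio at 72 h (0.935 to 1.08) and 96 h (0.916 to 1.06) include 1. No group holds enough libraries for a search for a library far from the others.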

How the results depend on the processing

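Vcam1 passed limma under 8 of 9 alternatives, with a mean log2 change of 0.85 to 1.01 and Benjamini-Hochberg adjusted p of 0.00433 to 0.0718; the exception was the fit without the 72 h library. Leaving out 1 off library in turn gave 0 to 2 members called (Vcam1 and Marco without the 96 h library) and 2356 to 4158 genes called in all, against 1 and 3229 with every library; the cause was not tested. C1qb reversed without the 48 h library, to a mean change of -0.0082 (limma adjusted p = 0.976); leaving out each off library in turn gave -0.0082 to 0.16. The 27 values by member and time held 1 past 2-fold; a pseudocount of 0.1 FPKM gave 2, with Marco at 72 h added, and of 5 FPKM gave 0, since a larger pseudocount shrinks every change. With the median change set to 0, the calls over all genes split into 1662 higher and 1314 lower, against 1415 and 1814. That fit removed the medians of its own 12015 genes. From the changes of single times, the medians removed were -0.14, -0.07 and -0.06 at 48 h, 72 h and 96 h. Without the filter on low FPKM, Cd68, Cd209a, Cd3d, Cd5l, Fth1, Gzma, Irf8, Itgb7, Msn, Serping1, Sfpi1 and Spic no longer passed (adjusted p = 0.0643 to 0.0911), and with the median set to 0, Irf8 (0.0677) and Sfpi1 (0.0552) did not; Fth1 was also lost without the 48 h library (0.0584) and without the 72 h library (0.123). The deposited combined off value gave a Vcam1 log2 change of 0.97 against 0.93. No paired analysis was possible because each group holds 1 library and no replicate numbers are shared. Low read numbers widen the counting intervals of Marco most.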
